A study of Homo sapiens with 12 samples.

Results

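The ID and E proteins are the transcription regulators that set how far basic helix-loop-helix factors such as MYOD1 can act in muscle cells. The 7 genes described here, ID1, ID2, ID3, ID4, TCF3, TCF4 and TCF12, are 7 of the 23870 gene names on the array and were chosen by name, as the ID family and the E proteins that it binds. They are read by 13 probes of 60 bases. Expression was measured in Rh30, an established human alveolar rhabdomyosarcoma line that carries the PAX3-FKHR fusion gene (FKHR is now named FOXO1). WT is the untransfected parental line, grown without puromycin. CON is a clone with a non-targeting shRNA, and KD1 is a single clone with an shRNA against PAX3-FKHR; both were made with a retroviral vector and kept in puromycin at 1 μg/mL. All cultures were plated 24 h before RNA was taken. Each culture gave 2 extracts, labeled as biological replicates, and 12 two-color arrays compared KD1 vs CON, KD1 vs WT and WT vs CON with 2 replicates and a dye swap for each, so every extract lay on 4 arrays. Since each clone is a single clone and only the clones met the vector and puromycin, an effect of the knockdown cannot be told apart from differences between clones, and for WT from the drug.

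E proteins (TCF3, also called E2A; TCF4, also called E2-2; TCF12, also called HEB) pair with tissue-restricted basic helix-loop-helix factors, and the pair binds the E box, whose letters are CANNTG. ID proteins have the helix-loop-helix through which E proteins pair but lack the basic region that touches DNA, so an E protein held by an ID protein does not bind the E box. In myoblasts ID levels are known to fall as differentiation begins, and bone morphogenetic protein (BMP) signaling through SMAD proteins is a well known inducer of ID genes.

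All 8 rhabdomyosarcoma markers fixed for the check of the cell type, among them MYOD1, MYOG, DES and FGFR4, were well above background in every culture on all 8 of its arrays. Of the 3 epithelial markers, EPCAM, KRT5 and CDH1, no array showed any in KD1 or CON, but EPCAM was well above background on 4 of 8 WT arrays, CDH1 on 2 and KRT5 on 1. Their summed log2 level was 7.54 in the second WT extract and 3.35 to 3.75 in the other 5. Of the 4 blood markers PTPRC and HBB stayed at background everywhere and CD3E and CD68 did not. CD68 was higher in KD1 than in CON by 1.54 ± 0.34 on the log2 scale (SD, n = 2; limma, Benjamini-Hochberg adjusted p = 0.0221), and the summed log2 level of the 4 was 8.38 to 8.58 in KD1, 7.05 to 7.58 in CON and 7.65 to 7.76 in WT. Of the 3 endothelial markers PECAM1 and VWF were well above background on all arrays, and the sum was 10.74 in the second KD1 extract and 9.44 to 10.11 in the other 5. VWF, named after its values were seen, was at 9.35 in the second KD1 extract, at 6.89 in the first and at 5.66 to 6.32 in CON and WT. The part of these markers in the results was not tested. The share of spots well above background was 71.1% to 73.6% in Cy3 and 64.4% to 67.8% in Cy5. The array holds no probe across the fusion junction, and its probes read PAX3 and FOXO1, which are also parts of the fusion transcript. The brightest PAX3 probe gave -0.42 ± 0.04 for KD1 against CON and -0.39 ± 0.08 against WT, and the brightest FOXO1 probe -0.42 ± 0.23 and -0.60 ± 0.26 (log2 ratio, SD, n = 2). The other PAX3 probes gave -0.09 and -0.28 for KD1 against CON and 0.06 and -0.25 against WT, and the other FOXO1 probe -0.39 and -0.30. None of these 10 values passed limma's test, with adjusted p between 0.273 and 0.930.

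Of the 13 probes, 11 had signal above the negative controls on all 12 arrays and were tested in all 3 comparisons. limma's test with Benjamini-Hochberg adjustment at 0.05 called 0 of the 11 when KD1 was set against CON, beside 393 of all 21937 probes tested (1.79%). It called 0 of the 11 against WT, beside 261 of 24884 (1.05%), and 0 for WT against CON, beside 365 of 26595 (1.37%). All 9 other ways of fitting also called 0, except that WT vs CON fitted alone called 1. At an unadjusted p under 0.05, 1 of the 11 passed in KD1 vs CON beside 17.2% of all probes, 4 passed for KD1 against WT beside 17.2%, and 1 for WT against CON beside 16.5%. The 11 probes had a median log2 ratio of -0.38 for KD1 vs CON (-0.01 over all probes), -0.33 for KD1 vs WT (0.01) and 0.03 for WT vs CON (-0.03). In bulk RNA, fewer cells that express a gene and less of its RNA per cell cannot be told apart. The members fell into 3 patterns. ID1 and ID3 differed strongly between the KD1 extracts. TCF12 had small values of the same sign in both. ID2, TCF3 and TCF4 had small values, and of their probes only the brightest of TCF4 kept the same sign in both extracts in both KD1 comparisons.

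**Figure D1:**
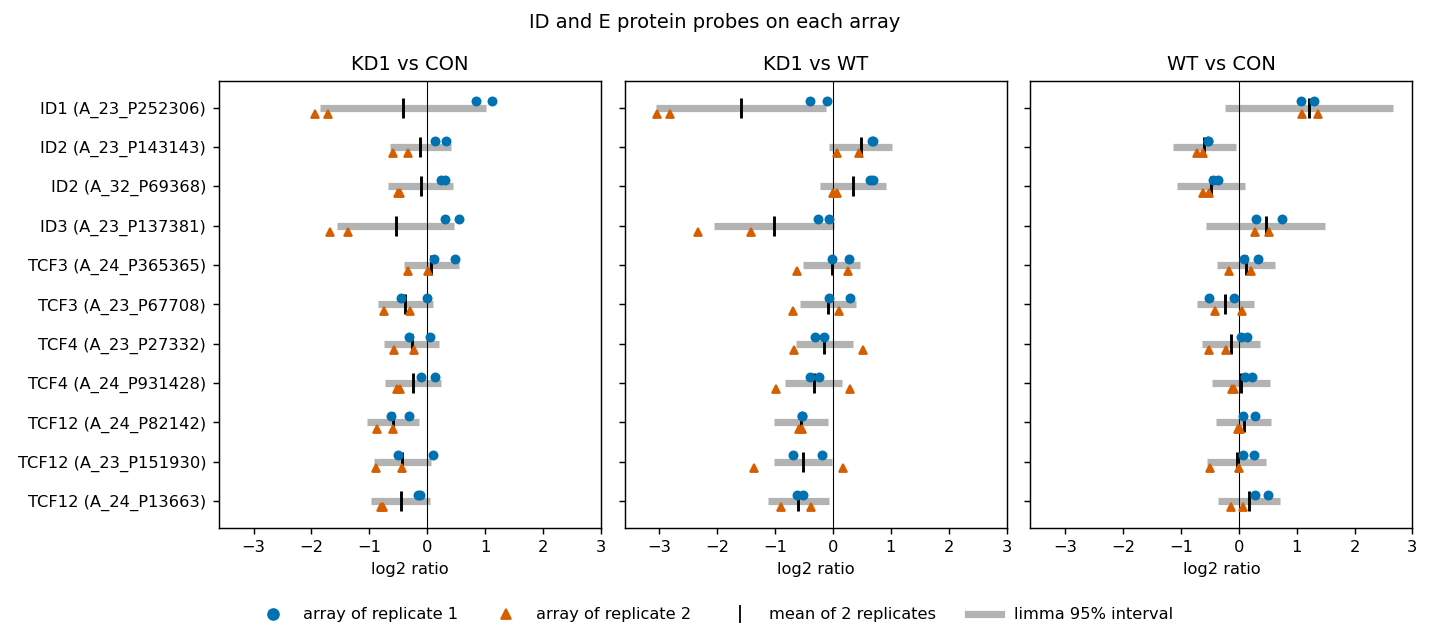
Log2 ratio (x axis) of the 11 tested probes (y axis) in each comparison; circles are the arrays of replicate 1, triangles those of replicate 2, black ticks the mean of the 2 replicates and gray bars limma's 95% interval. For ID1 and ID3 the circles and triangles lie apart in both KD1 comparisons and together in WT vs CON, whereas for the TCF12 probe A_24_P82142 all 8 arrays of KD1 lie below 0.

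ID1, a strong inhibitor of E proteins that is typical of proliferating cells, had the largest ratios of the family. On the KD1 vs CON arrays its log2 ratio was 0.84 and 1.12 in replicate 1 and -1.94 and -1.71 in replicate 2. On the KD1 vs WT arrays it was -0.40 and -0.10 in replicate 1 and -3.04 and -2.82 in replicate 2. On the WT vs CON arrays it was 1.08, 1.31, 1.09 and 1.37. Against CON, ID1 was thus higher in the first KD1 extract on both arrays and lower in the second on both, and the replicates did not overlap, while in WT it was above CON on 4 of 4 arrays.

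The mean ID1 ratio of KD1 was -0.42 ± 1.98 against CON (SD, n = 2; 95% interval -1.86 to 1.01) and -1.59 ± 1.90 against WT (-3.06 to -0.12), and limma's adjusted p was 0.804 and 0.257. In WT vs CON it was 1.21 ± 0.03, or 2.32-fold, with an adjusted p of 0.377 in the fit that shares its spread with the KD1 comparisons (interval -0.23 to 2.66), although the 2 replicates were 1.19 and 1.23, and so alike with and without the second WT extract. Fitted alone on those 2 values the same ratio passed, with a limma adjusted p of 0.0219. The replicate gap of ID1 in KD1 vs CON, 2.80, was equaled or exceeded by 12 of the 21937 probes tested (0.0547%), and the gap in KD1 vs WT, 2.68, by 125 of 24884 (0.502%). Without the first KD1 extract, ID1 passed the test in KD1, at -1.82 against CON (adjusted p = 0.0102) and -2.93 against WT (adjusted p = 0.00165), and without the second it was 0.98 (adjusted p = 0.317) and -0.25; with KD1 reduced to a lone extract, limma assumes that it varies as the other cultures do.

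ID3, a close relative of ID1 that is also expressed in proliferating myoblasts, behaved alike at a smaller size. Its log2 ratio in KD1 vs CON was 0.55 and 0.31 in replicate 1 and -1.36 and -1.67 in replicate 2. In KD1 vs WT it was -0.07 and -0.26 in replicate 1 and -1.41 and -2.33 in replicate 2. The first KD1 extract was again above CON and the second below it, with no overlap. In WT vs CON the 4 arrays gave 0.75, 0.29, 0.53 and 0.29, all above 0. The means of KD1 were -0.54 ± 1.38 against CON and -1.02 ± 1.21 against WT, and that of WT against CON was 0.46 ± 0.08 (SD, n = 2), and limma's adjusted p was 0.591, 0.298 and 0.656. A gap as large as that of ID3 was found for 100 of 21937 probes in KD1 vs CON (0.456%) and for 695 of 24884 in KD1 vs WT (2.79%). Without the first KD1 extract ID3 passed at -1.52 (adjusted p = 0.0306) and -1.87 (adjusted p = 0.0195), and without the second it was 0.43 and -0.17.

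**Figure D2:**
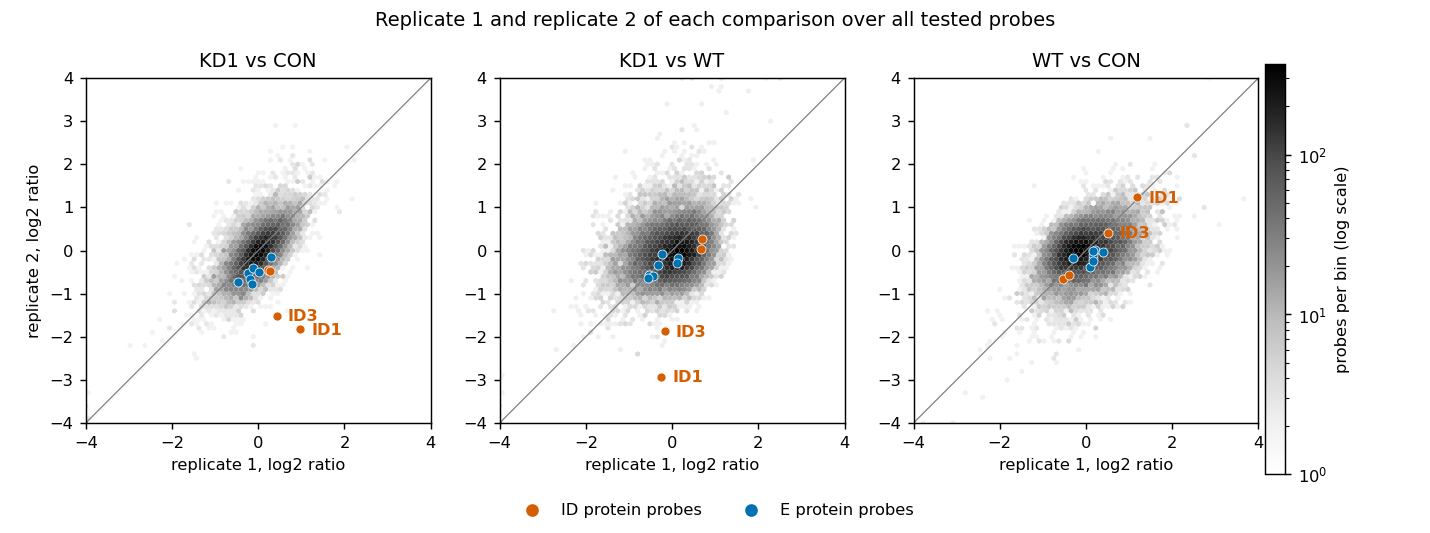
Log2 ratio in replicate 1 (x axis) against replicate 2 (y axis) in each comparison; gray hexagons count all probes tested, on a log scale and limited to -4 and 4, colored points are the probes of ID (orange) and E (blue) proteins, and the line marks equal replicates. ID1 and ID3 lie at the lower edge of the cloud in KD1 vs CON (0.98 and -1.82 for ID1) and on the line in WT vs CON (1.19 and 1.23 for ID1).

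The levels in the single extracts show where this gap lies. After scaling of the single channels, the log2 level of ID1 was 15.64 and 13.41 in the KD1 extracts, 14.70 and 15.08 in CON, and 15.86 and 16.31 in WT. ID3 was at 13.14 and 11.57 in KD1, 12.73 and 13.19 in CON, and 13.29 and 13.53 in WT. The second KD1 extract was the lowest of the 6 for both genes, while the first lay between CON and WT for ID1 and among the CON extracts for ID3. A difference between the KD1 extracts as large as that of ID1, 2.23, was found for 109 of 21870 probes, and one as large as that of ID3, 1.57, for 282. The median absolute difference between the KD1 extracts over these probes was 0.27, beside 0.20 for CON and 0.26 for WT. In the order of culture means WT was above CON and CON above KD1 for both genes. The WT extracts lay above both CON extracts, by little for ID3, while CON and KD1 did not differ beyond the spread of the KD1 extracts.

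The KD1 arrays of replicate 1 and of replicate 2 were on 2 different slides and the WT vs CON arrays on another, so slide and replicate cannot be told apart within a KD1 comparison. The KD1 arrays also imply a WT vs CON ratio, as KD1 vs CON minus KD1 vs WT. For ID1 this was 1.23 in replicate 1 and 1.11 in replicate 2, beside the measured 1.19 and 1.23. For ID3 it was 0.60 and 0.35, beside 0.52 and 0.41. Over the 11 probes and 2 replicates the implied and measured ratios differed by at most 0.19. Since KD1 cancels in this difference, it compares WT and CON across slides and does not bear on the gap between the KD1 extracts.

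**Figure D3:**
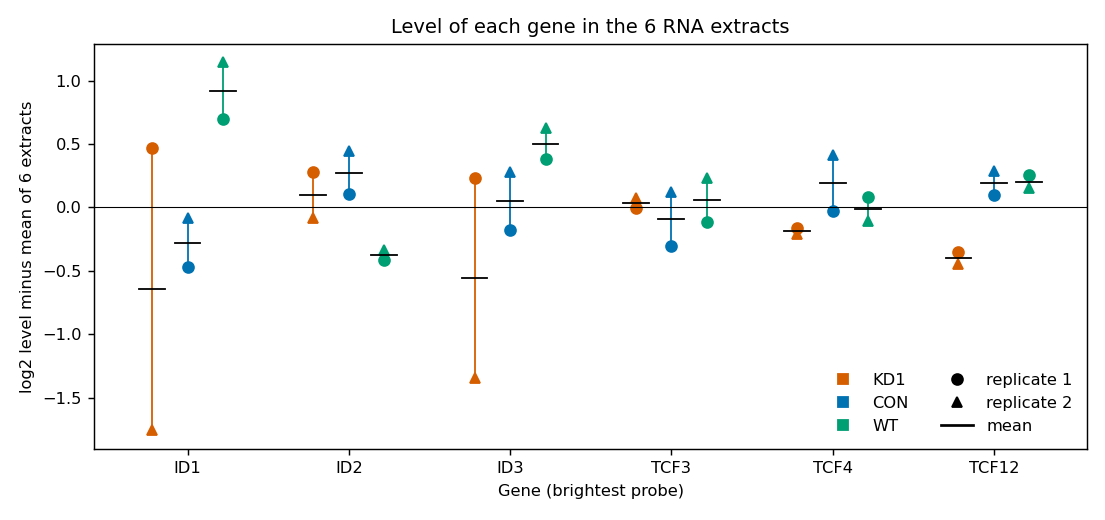
Log2 level of the brightest probe of each gene minus its mean over the 6 extracts (y axis) by gene (x axis), with KD1 in orange, CON in blue and WT in green; circles are replicate 1, triangles replicate 2, and black ticks the mean of the 2. The KD1 extracts of ID1 lie at 0.47 and -1.76 and those of ID3 at 0.23 and -1.34. Those of TCF12, at -0.35 and -0.45, and of TCF4, at -0.16 and -0.21, lie below all CON and WT extracts.

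The probes of ID1 and ID3 are shown because a shared stretch would let them read each other's transcript. The ID1 probe, A_23_P252306, lies at chr20:29657819-29657878 on the plus strand of NCBI36, and the ID3 probe, A_23_P137381, at chr1:23758253-23758312 on the minus strand. The first 30 bases of the ID1 probe and the whole ID3 probe are as follows, with no base in capitals.
ID1 probe: gcagacattttaaaaaatggtcacgtttgg
ID3 probe: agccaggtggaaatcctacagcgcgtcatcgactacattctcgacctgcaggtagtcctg
The longest run of bases that the 2 whole probes share was 6, and no 2 of the 5 ID probes shared more than 7.

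The sequence before the transcript start of the ID genes is shown because the ratios of ID1 and ID3 ran together and those of ID2 did not. The 250 bases before the start are given on the gene's strand, from RefSeq on GRCh38.p14, at chr20:31605039-31605288 (plus strand) for ID1, chr1:23559502-23559751 (minus) for ID3 and chr2:8681806-8682055 (plus) for ID2. Capitals mark the E box CANNTG and the TATA motif TATAA on the strand shown.
ID1 promoter: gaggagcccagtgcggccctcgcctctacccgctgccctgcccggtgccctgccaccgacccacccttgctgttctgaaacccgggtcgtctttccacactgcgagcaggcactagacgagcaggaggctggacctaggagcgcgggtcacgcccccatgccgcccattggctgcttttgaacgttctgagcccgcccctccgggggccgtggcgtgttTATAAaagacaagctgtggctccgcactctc
ID3 promoter: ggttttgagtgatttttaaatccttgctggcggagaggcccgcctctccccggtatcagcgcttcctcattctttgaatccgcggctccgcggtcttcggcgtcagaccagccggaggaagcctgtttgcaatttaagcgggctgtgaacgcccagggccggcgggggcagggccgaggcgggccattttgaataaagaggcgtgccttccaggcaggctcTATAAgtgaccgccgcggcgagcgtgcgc
ID2 promoter: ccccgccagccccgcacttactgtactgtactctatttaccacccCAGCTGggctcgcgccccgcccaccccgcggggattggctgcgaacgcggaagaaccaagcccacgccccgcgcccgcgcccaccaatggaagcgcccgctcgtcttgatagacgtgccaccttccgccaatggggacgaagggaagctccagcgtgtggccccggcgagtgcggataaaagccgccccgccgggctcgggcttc
TATAA, searched on both strands, occurred 1 time before ID3 and ID4, 2 times before ID1, where the matches on the 2 strands overlap, and not before ID2. Of 35116 promoter windows of the same length 18.9% hold it. CANNTG, which reads the same on both strands, occurred once before ID2 and ID4 and not before ID1 or ID3, and 61.8% of all windows hold it. The homeodomain core ATTA (47.4% of all windows) and the GC-rich SMAD motif GGCGCC (16.4%), searched on both strands, were in none of the 4 windows. A match or its lack in a window this short is a description of its letters.

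ID2, an inhibitor of the same family that is found in many tissues, had ratios of the opposite sign to ID1 between WT and CON. Its brightest probe, A_23_P143143, gave -0.53, -0.53, -0.62 and -0.71 on the WT vs CON arrays, all below 0. In KD1 vs WT it gave 0.70, 0.68, 0.45 and 0.07, all above 0. In KD1 vs CON it gave 0.32 and 0.13 in replicate 1 and -0.33 and -0.59 in replicate 2. The WT extracts were thus the lowest of the 6, at 11.16 and 11.25, and did not overlap the others. CON was at 11.68 and 12.02 and KD1 at 11.86 and 11.49. How many of all probes show such an order was not counted, so it is a description.

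The mean for ID2 in WT was -0.60 ± 0.10 against CON (95% interval -1.14 to -0.06), and in KD1 it was 0.48 ± 0.30 against WT (-0.06 to 1.01) and -0.12 ± 0.48 against CON (-0.64 to 0.40), with limma adjusted p of 0.264, 0.343 and 0.858. The other ID2 probe, A_32_P69368, gave -0.48 ± 0.11, 0.35 ± 0.45 and -0.11 ± 0.53 (SD, n = 2), the same signs in all 3 comparisons. The 2 probes share no more than 5 bases in a row. They lie at chr2:8741733-8741792 for the second and at chr2:8740093-8740481 for the brightest, a stretch of 389 bases for a 60-base probe, on NCBI36. The sign of ID2 in KD1 vs CON turned, to 0.22 for the brightest probe, without the second extract of KD1 or of CON.

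ID4, an ID gene best known from the developing brain, could not be compared. On none of the 12 arrays was its probe, A_23_P59375, well above background in either channel, and so no fold is given.

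TCF12, an E protein that can pair with MYOD1 and MYOG in muscle cells, had ratios below 0 in KD1. The brightest probe, A_24_P82142, gave -0.31, -0.62, -0.60 and -0.87 on the KD1 vs CON arrays and -0.54, -0.53, -0.59 and -0.53 on the KD1 vs WT arrays. All 8 values were below 0. On the WT vs CON arrays it gave 0.06, 0.28, -0.02 and 0.01. The level was 12.50 and 12.41 in KD1, 12.95 and 13.14 in CON, and 13.11 and 13.00 in WT. The KD1 extracts thus lay below all others, and CON and WT overlapped. How many of all probes show such an order, or the same sign on all 8 arrays, was not counted, so both are descriptions.

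The mean of this TCF12 probe was -0.60 ± 0.19 in KD1 vs CON (1.51-fold lower; 95% interval -1.05 to -0.15) and -0.55 ± 0.02 in KD1 vs WT (1.46-fold lower; -1.01 to -0.09). These were the smallest adjusted p of any member in their comparison, 0.179 and 0.224 in limma, and neither passed the threshold. The mean was 0.08 ± 0.13 in WT vs CON (adjusted p = 0.881), a sign that turned to -0.04 under median centring. The probe A_23_P151930 gave -0.43 ± 0.32 and -0.52 ± 0.11 in the KD1 comparisons, and A_24_P13663 gave -0.46 ± 0.45 and -0.60 ± 0.05 (SD, n = 2). A_24_P13663 was below 0 on all 8 KD1 arrays and A_23_P151930 on 6 of 8. The 3 probes lie within chr15:55352693-55368723 of NCBI36 and read the same gene, so they are not independent. The last TCF12 probe, A_24_P944702, lies at chr15:55152690-55152749, before the others, and stayed at background on all arrays.

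TCF3, whose products E12 and E47 are the classical E proteins, was near 0. The brightest probe, A_24_P365365, gave 0.07 ± 0.32 for KD1 against CON, -0.02 ± 0.22 against WT, and 0.12 ± 0.13 for WT against CON (SD, n = 2). The other, A_23_P67708, gave -0.38 ± 0.20, -0.09 ± 0.28 and -0.23 ± 0.08, and the 2 probes thus differed in sign in KD1 vs CON and in WT vs CON. Their limma adjusted p lay between 0.398 and 0.971. For KD1 the 95% interval of the brightest probe was -0.41 to 0.56 against CON and -0.52 to 0.47 against WT.

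TCF4, an E protein of many tissues, gave -0.27 ± 0.19 for KD1 against CON, -0.15 ± 0.11 against WT, and -0.14 ± 0.33 for WT against CON with its brightest probe, A_23_P27332. Its other probe, A_24_P931428, gave -0.24 ± 0.36, -0.33 ± 0.01 and 0.03 ± 0.19 (SD, n = 2). The limma adjusted p lay between 0.467 and 0.959. With A_23_P27332 the 95% interval of KD1 ran from -0.75 to 0.21 against CON and from -0.65 to 0.34 against WT. With either probe 3 of 4 arrays were below 0 in each KD1 comparison. For the brightest the level was 12.15 and 12.10 in KD1, 12.28 and 12.72 in CON, and 12.39 and 12.20 in WT. For the other it was 8.92 and 8.87 in KD1, 9.01 and 9.44 in CON, and 9.19 and 9.25 in WT. With both probes the KD1 extracts thus lay below all others, as for TCF12. How many of all probes show such an order was not counted.

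Criteria after those in the study's methods were applied here to the deposited values, and the counts are those of this application. They asked for a mean of at least 2-fold in both KD1 comparisons, signal above the negative controls and the same direction on all 8 arrays. Of the 7 genes, 6 had such signal and 0 met the criteria, which 239 of 13751 genes met (1.74%). With CON in the place of KD1, 0 met them beside 223 of 13779 genes (1.62%). With WT in that place 1 did, ID1, higher in WT than in CON and than in KD1 on all 8 arrays, beside 234 of 15241 genes (1.54%). This count was 0 under median centring, and ID1 met the criteria on replicate 2 alone but not on replicate 1 alone. For KD1, ID1 and ID3 both met them as lower on replicate 2 alone.

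The genes whose ratios were most like those of ID1 were sought among the 13740 other genes with signal in all 3 comparisons, by Pearson correlation over the 12 array ratios, which share 6 extracts and 3 slides. The 5 highest were POLH (r = 0.984), a DNA polymerase for damaged templates, EDN2 (0.982), a peptide of the endothelin family, RCAN2 (0.981), a regulator of calcineurin, HHIPL2 (0.976) and LOC100288737 (0.975). In all 5 the second KD1 extract was the lowest of the 6, by 1.35 to 2.62 below the first on the log2 scale. ID3 had rank 54, with r = 0.945. TCF12 had r = 0.698, TCF3 0.564, TCF4 0.03 and ID2 -0.31. These correlations rest on arrays that share extracts and describe likeness only.

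The class II basic helix-loop-helix factors are the partners of the E proteins. Each call of a list gene named from here on, in every comparison, was lost with normexp background correction and loess, under which limma called 26 probes of all for KD1 against CON, 1 against WT and 2 for WT against CON. In the other 8 fits the calls of OLIG1 against CON and of BMPR1B against WT held, also without any single extract. Of 24 such genes 23 are on the array; 7 were tested for KD1 against CON and 8 against WT, with a median of -0.42 and -0.41 (-0.01 and 0.01 over all probes). OLIG1 and OLIG2, which specify oligodendrocytes and motor neurons in the nervous system, were called lower in KD1 vs CON. OLIG1 was well above background on only 4 of 8 KD1 arrays. With the dim arrays set to the lowest signal well above background, its level in CON was at least 34.2-fold that in KD1. Its level in WT was at least 12.2-fold that in KD1. limma's adjusted p, 0.00618 against CON and 0.0269 against WT, belongs to the log2 ratios as measured, -5.2 and -4.0, and not to these bounds. Both bounds hold for the processed signals only. With normexp and loess the log2 ratios were smaller, -1.94 and -1.33. The call against WT was lost without the filter on low signal, without the replicate block, with residual degrees of freedom of 3, in the fit over the triangle of comparisons, and without the first KD1 or the first WT extract. OLIG2 was at -1.90 and -1.51 in KD1 vs CON (mean -1.71, adjusted p = 0.0212), a call that was lost without the filter (adjusted p = 0.0540) and without either CON extract. HAND2, named after its values were seen, was not tested in either KD1 comparison. It was well above background on 2 of 8 KD1 arrays and on all 8 of CON and of WT. With the dim signals as measured, its log2 ratios were -2.65 and -1.67 against CON and -2.24 and -1.47 against WT. None of the muscle factors was called in a KD1 comparison: MYOD1, the master factor of the muscle lineage, had a mean of 0.03 against CON and 0.07 against WT, and MYOG, which drives terminal differentiation, -1.14 (adjusted p = 0.0508) and 0.60 (adjusted p = 0.227). In WT vs CON 1 of 11 was called, MYOG, at -1.96 and -1.50 (mean -1.73, limma adjusted p = 0.0185), named here after its value was seen; the call was also lost without the replicate block (adjusted p = 0.196) and without any extract of WT or CON.

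Of 26 BMP and SMAD genes, all on the array, 17 were tested in KD1 vs CON, with 1 called lower and a median of -0.24, and 21 in KD1 vs WT, with 2 called lower and a median of -0.25. BMPR1B, a type I BMP receptor, was not well above background on any of 8 KD1 arrays but on all 8 of CON and of WT. Its level in WT was at least 29.3-fold that in KD1 and its level in CON at least 7.02-fold. Each bound sets the mean normalized level of the brighter culture against the lowest signal that was well above background on each KD1 array. limma's adjusted p against WT, 0.000374, belongs to the log2 ratio as measured, -5.96, and not to the bound. These bounds too hold for the processed signals only. With normexp and loess the log2 ratio against WT was -1.88. BMPR1B was not tested in KD1 vs CON. SMAD9, which carries BMP signals, was lower in KD1 vs WT, at -1.37 and -2.02 (mean -1.70, adjusted p = 0.0248), a call that was lost in the same 4 fits as that of OLIG1 against WT (adjusted p between 0.051 and 0.131) and without the second KD1 or either WT extract. NOG, a secreted BMP antagonist, was lower in KD1 vs CON, at -1.44 and -1.69 (mean -1.57, adjusted p = 0.0487), a call that was lost in 4 of the other 8 fits, among them that without the filter on low signal (adjusted p = 0.103), and without the second KD1 or either CON extract. In WT vs CON 3 of 21 were called higher: BMPR1B by 2.08, SMAD9 by 1.59 and GREM1, a BMP antagonist named after its value was seen. GREM1 was well above background on 2 of 8 CON arrays, and with the dim arrays set as above it was at least 7.91-fold higher in WT. Its limma adjusted p, 0.00308, belongs to the log2 ratio as measured, 3.81, and not to this bound. With normexp and loess the log2 ratio of GREM1 was 0.88, below the bound. The calls of BMPR1B and SMAD9 were lost in 3 of the other 8 fits, and all 3 calls were lost without either WT extract. Those of BMPR1B and SMAD9 were also lost without the first CON extract, and that of SMAD9 without the second.

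The SMAD1 and SMAD5 ratios, named here after their values were seen because these SMADs also serve BMP receptors, did not pass in KD1 vs CON (-0.65 and -0.20, limma adjusted p = 0.165 and 0.681). Over the 17 genes of the list with signal in all comparisons, 9 were lower and 8 higher in the first KD1 extract than in the second. The largest difference in the direction of ID1 was 0.68, for NOG. SMAD6, named after its values were seen, was at 0.13 and -1.69 in KD1 vs CON and at -0.63 and -1.76 in KD1 vs WT (limma adjusted p = 0.368 and 0.200). Its levels were 7.63 and 6.97 in KD1, 7.46 and 8.63 in CON, and 8.27 and 8.62 in WT.

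Of 15 other factors that bind E boxes, among them HES1, ZEB1 and SNAI2, 13 were tested in KD1 vs CON and 14 in each other comparison, and limma called 0 in each of the 3 at an adjusted p under 0.05. At an unadjusted p under 0.05, 3 passed for KD1 against CON, 4 against WT, and 1 for WT against CON. Of all probes tested, 17.21%, 17.21% and 16.55% passed in these comparisons. Their median was -0.23 for KD1 against CON, 0.16 against WT, and -0.36 for WT against CON.

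The muscle differentiation genes are the targets that E proteins and myogenic factors share. Of 17 on the list 16 are on the array. In KD1 vs CON 15 were tested and limma called 0, with a median of -0.07. At an unadjusted p under 0.05, 2 passed, beside 17.21% of all probes. At that level 6 of 15 passed for KD1 against WT, beside 17.21% of all probes, and 6 of 16 for WT against CON, beside 16.55%. Against WT 2 of 15 were called higher, with a median of 0.50. These were MYL1, a myosin light chain, at 1.66 and 3.27 (mean 2.46, limma adjusted p = 0.0469), and TNNI1, slow troponin I, at 1.87 and 1.96 (mean 1.92, adjusted p = 0.0208). The call of MYL1 was lost without the filter (adjusted p = 0.0893), and both were lost without the replicate block, with residual degrees of freedom of 3, in the triangle fit, and without the second KD1 or either WT extract (adjusted p between 0.0527 and 0.239 in those fits). In WT vs CON 3 of 16 were called lower, with a median of -0.37: MYL1 at -2.51, TNNI1 at -2.36 and MYL4, an atrial and fetal myosin light chain named after its value was seen, at -1.90 (adjusted p between 0.00847 and 0.0373 in limma). All 3 calls were lost without the replicate block, without either WT extract and without the first CON extract. Those of MYL1 and MYL4 were also lost without the second CON extract. That of MYL1 was also lost without the filter and with residual degrees of freedom of 3. WT, the culture with the highest ID1 but the lowest ID2, thus had the lowest MYL1, TNNI1 and MYL4 in both of its extracts. A link between ID and muscle genes was not tested. These 3 are the genes called for being lower in WT, and not all others on the list followed. CHRNA1 and CDH15 had their highest level in the first WT extract, whereas DES, CHRND and MEF2C were also lowest in both WT extracts. The comparisons share extracts, and WT alone was grown without puromycin.

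The second KD1 extract, in which ID1 and ID3 were lowest, also stood apart in the muscle genes. Of the 15 muscle genes with signal in all comparisons, 13 were lower in the first KD1 extract than in the second, and the median of the first minus the second was -0.90 on the log2 scale, beside 44.6% of all 21870 probes and a median of 0.05. For MYH3, the embryonic myosin heavy chain, named after its values were seen, this difference was -2.59, and for MYL1 -1.95. In CON 14 of the 15 were lower in the first extract, with a median of -0.29, and in WT 9 of 15, with a median of -0.05. MYF5, an early myogenic factor named after its values were seen, went with ID1 and not with these genes: its levels were 11.72 and 10.58 in KD1, 11.30 and 11.84 in CON, and 13.11 and 13.01 in WT. The endothelial marker VWF was higher in the second KD1 extract as well, as given above. What set the KD1 extracts apart was not tested.

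**Figure D4:**
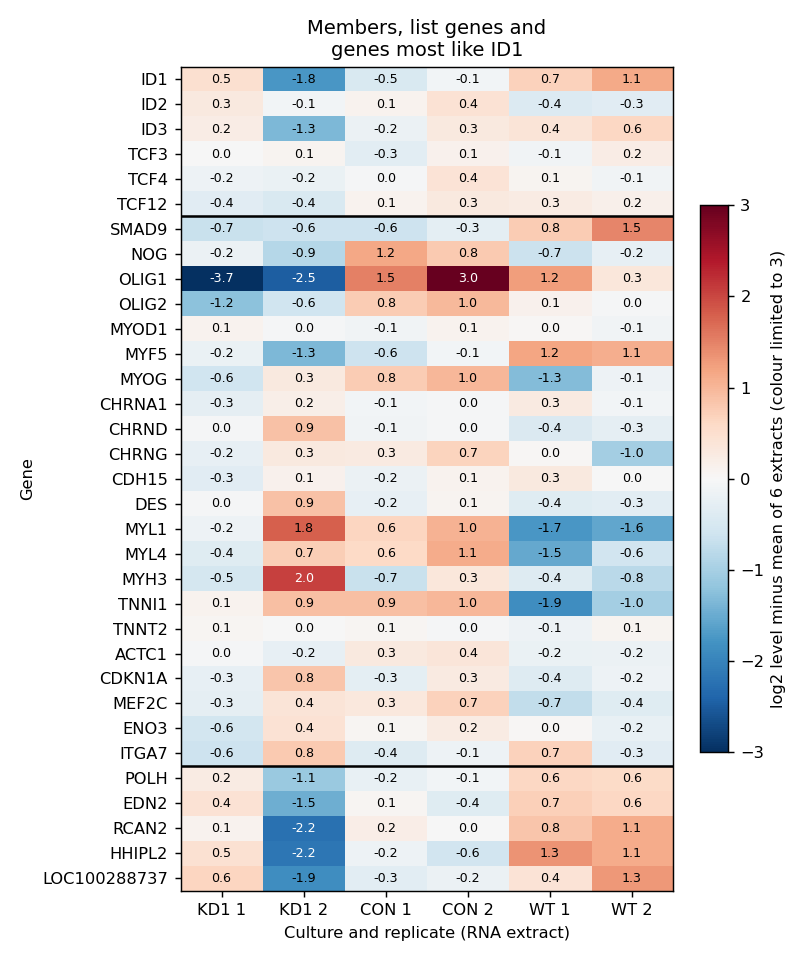
Log2 level minus the gene's mean over the 6 extracts (color and printed value) for the members (top), genes of the lists (middle: named BMP and OLIG genes other than BMPR1B, the muscle factors with signal, and all 15 muscle genes) and the 5 genes most like ID1 (bottom), by extract (x axis) and gene (y axis). In the column of the second KD1 extract ID1, ID3 and the bottom block have their lowest values, from -1.11 to -2.23, while MYL1 and MYH3 are at 1.79 and 2.05.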

How the data were processed

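The authors hybridized RNA of WT, CON and KD1 to Agilent two-color whole human genome arrays (41000 probes, 500 ng of RNA labeled) and extracted the spots with Agilent Feature Extraction 10.5.1.1. They deposited linear intensity values per spot, with processed signals after background subtraction and lowess normalization, their log10 ratio of red over green, and a series table with ratios on the log2 scale. Positions are those of the files, on NCBI36.

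The log2 ratio of the processed intensities was turned to KD1 vs CON, KD1 vs WT and WT vs CON, averaged over spots without outlier flags (95 to 188 spots flagged per array) and over each dye-swap pair, which counts as 1 replicate. A probe was tested where, on every array of a comparison, the background-subtracted signal of 1 or both channels was over the 99th percentile of 153 negative controls. limma 3.58.1 in R 4.3.3 was fitted to the 6 replicate values. The residual degrees of freedom were given as 2, because extracts recur between comparisons, with 3 as an alternative, and the Benjamini-Hochberg adjustment ran over all probes tested. The fit was tested on simulated data. Levels per extract are single-channel signals after A-quantile scaling, averaged over 4 arrays, and are not compared between probes. The brightest probe stands for a gene.

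Named genes are all member probes, PAX3, FOXO1, from each list the genes called in a KD1 comparison (at most 4), and the 5 genes most like the member with the largest ratios. The members and lists were chosen with earlier results of these data known. Alternatives were other normalizations, the series table, other filters, fits without the pairing, and leaving out extracts. The normexp correction added an offset of 50 to the intensities before loess. Promoters and motifs were read from RefSeq on GRCh38.p14. The number of arrays, with 2 replicates per comparison, limits the precision.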

Additional observations from a re-analysis of the deposited data

How the results depend on the processing

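Each comparison rests on 2 replicates, so the number of arrays limits every value, and TCF3, TCF4 and WT vs CON values near 0 have no settled sign. Of 495 values of the 11 probes under alternatives with a test, 455 kept their direction and their side of the threshold, 33 changed sign and 7 newly passed. Some of these values repeat. Leaving out an extract of the culture outside a comparison gave the same result as that comparison fitted alone. ID1 in WT vs CON is therefore counted more than once among the 7. When an extract was left out, limma called 0 to 2 member probes for KD1 against CON, 0 to 2 against WT (2, ID1 and ID3, without the first KD1 extract) and 0 to 1 for WT against CON (1, ID1, without either KD1 extract, and 1 with that comparison fitted alone). The count for the selection criteria was 0 to 2 for KD1 on 1 replicate, and with WT instead 0 to 1, and 0 under median centring. With an extract left out, KD1 vs CON ranged from -1.82 to 0.98 for ID1, -1.52 to 0.43 for ID3, -0.46 to 0.22 and -0.49 to 0.27 for the ID2 probes, -0.15 to 0.30 for TCF3 A_24_P365365 and -0.50 to 0.0133 for TCF4 A_24_P931428. KD1 vs WT ranged from -0.18 to 0.13 for TCF3 A_24_P365365 and -0.29 to 0.11 for A_23_P67708. WT vs CON ranged from -0.38 to 0.0897 for TCF4 A_23_P27332, -0.0992 to 0.17 for A_24_P931428, and for TCF12 from -0.00395 to 0.17 (A_24_P82142), -0.25 to 0.17 (A_23_P151930) and -0.0324 to 0.39 (A_24_P13663). Median centring, which moved the median over all probes by under 0.1, turned TCF3 for KD1 against WT to 0.17 (A_24_P365365) and 0.0932 (A_23_P67708), and for WT against CON turned TCF3 A_24_P365365 to -0.0536, TCF4 A_24_P931428 to -0.0562 and TCF12 A_24_P82142 to -0.0447. A least-squares fit over the triangle of comparisons turned TCF12 A_23_P151930 for WT against CON to 0.00517. With normexp and loess limma called 26, 1 and 2 of all probes in KD1 vs CON, KD1 vs WT and WT vs CON (547, 657 and 739 under median centring, and 946 for WT vs CON fitted alone), and the list genes called in a KD1 comparison kept their sign but lost their calls, with adjusted p from 0.0869 to 0.244. The size moved by over 1.5 times for OLIG1 (to -1.94 against CON and -1.33 against WT), OLIG2 (-0.99), NOG (-0.47), SMAD9 (-0.70) and BMPR1B (-1.88), whereas MYL1 was at 2.29 and TNNI1 at 1.82. The cause was not tested.

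Same-numbered extracts deviated together for KD1 and CON (correlation of replicate differences 0.541 over 21870 probes) but not for KD1 and WT (-0.0717) or CON and WT (-0.0211). The main fit used ratios of same-numbered extracts, which shared arrays, and so kept the pairing in all 3 comparisons. Without the replicate block 201, 126 and 114 of all probes were called in the 3 comparisons and 0 member probes in each, and TCF4 A_24_P931428 in WT vs CON turned to -0.00423.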
